A study of Mus musculus with 6 samples.

Results

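The BCL-2 family decides whether a cell keeps its mitochondria intact, and 10 of its genes were examined in pancreatic islets of mice with and without the bile acid receptor FXR. The members were taken by gene symbol and are the anti-apoptotic genes *Bcl2*, *Bcl2l1* and *Mcl1*, the effector genes *Bax* and *Bak1*, and the BH3-only genes *Bid*, *Bad*, *Bbc3*, *Pmaip1* and *Bcl2l11*. All 10 were found among the 19342 genes counted, and all 10 were among the 14619 genes that passed the filter on low counts. Islets had been isolated from the pancreas of wild-type mice (FXR+/+, 3 libraries) and of mice in which FXR was knocked out (FXR-/-, 3 libraries). Each genotype had 1 library labelled female and 2 labelled male, here called female 1, male 1 and male 2, all from mice 3 months old, and no treatment other than isolation is named. The knockout mice were on a C57Bl/6 background, with no cell type named to which the deletion was limited, and islets were released from the pancreas with collagenase P. Whether a library held islets of 1 mouse or of several was not given, so the p-values measure only the spread between these libraries. Each library is a mixture of all islet cell types and of cells carried over from the rest of the pancreas, so that fewer cells of a type and less RNA per cell cannot be told apart.

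The proteins of this family share short stretches called BH domains and meet at the outer membrane of the mitochondrion. BAX and BAK, the effectors, form the pores through which cytochrome c leaves for the cytosol, where it starts the caspase cascade. BCL-2, BCL-XL (from *Bcl2l1*) and MCL-1 hold the effectors and the BH3-only proteins in check, and the BH3-only proteins report stress: PUMA (from *Bbc3*) and NOXA (from *Pmaip1*) are induced through p53 and other stress pathways, BIM (from *Bcl2l11*) is induced by FOXO factors, BAD is held inactive by growth factor signals, and BID is cut by caspase 8. In the beta cell, which makes insulin and is prone to stress of the endoplasmic reticulum, this balance has long been studied as a route to cell loss in diabetes. Much of the family's regulation is by protein turnover, phosphorylation and movement between compartments, which counts of mRNA do not measure.

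The libraries held between 20629306 and 30139235 counts on genes. *Ins1* and *Ins2*, the insulin genes, took between 17.5% and 23.9% of them, and each library thus carried the defining RNA of beta cells. *Nr1h4*, the gene of FXR, stood at 14.2, 13.6 and 12.2 CPM (normalised read counts, with library sizes scaled by TMM) in the FXR+/+ libraries and at 5.67, 7.63 and 5.81 CPM in the FXR-/- libraries, in the order female 1, male 1, male 2. The genotypes did not overlap, and RNA of the gene was still counted in all 3 knockout libraries. The log2 fold change of *Nr1h4* was −1.07 (SE 0.160), with a Benjamini-Hochberg adjusted p over all genes of 0.217 in edgeR's quasi-likelihood fit of sex and genotype, and of 0.0441 with the replicate block (the sex and number of the library as a paired term). Of the summed markers of other cells, only those of macrophages and endothelial cells did not overlap between genotypes. No marker gene was called at an adjusted p under 0.05 by edgeR, where 0% of all genes were called. At an unadjusted p under 0.05 by edgeR, 5 of 7 macrophage and 4 of 5 endothelial genes were higher in FXR-/-, and 0 of either were lower. Of all genes, 6.18% were higher and 4.15% lower. The summed CPM of 7 macrophage genes ran from 104 to 130 in FXR+/+ and from 136 to 161 in FXR-/- libraries, and that of 5 endothelial genes from 325 to 416 and from 424 to 666. Acinar genes (14) summed to between 39045 and 118852 CPM in FXR+/+ and between 56239 and 134812 CPM in FXR-/- libraries, highest in the male 1 library of each genotype. The part of these cells in any value below was not tested.

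Over the whole family, no member was called changed. At an adjusted p under 0.05, 0 of the 10 members were called by edgeR's quasi-likelihood test, where 0% of all genes tested were called. The replicate block called 0 members, beside 0.157% of all genes, and DESeq2 called 0, beside 1.21%. At an unadjusted p under 0.05, 1 member, *Bbc3*, was counted by each of these fits, where edgeR with sex and genotype counted 10.3% of all genes (6.18% higher in FXR-/-), the replicate block 16.1% (9.83% higher) and DESeq2 9.1% (5.24% higher). One gene in a list of 10 is thus near the share of all genes. The log2 fold changes of FXR-/- over FXR+/+ were above 0 for 7 members and below 0 for 3 (4 and 6 with library size alone as the scaling), from −0.070 (*Bid*) to 0.57 (*Bbc3*). They had a median of 0.031 where the median of all genes tested was 0.0084. In 0 of the 10 members were the libraries of the genotypes apart from each other, while 15.4% of all genes had no overlap. The 95% intervals of the log2 fold changes reached between 0.26 and 1.33 to either side of the estimate, which is the precision that 3 libraries a genotype gave.

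**Figure D1:**
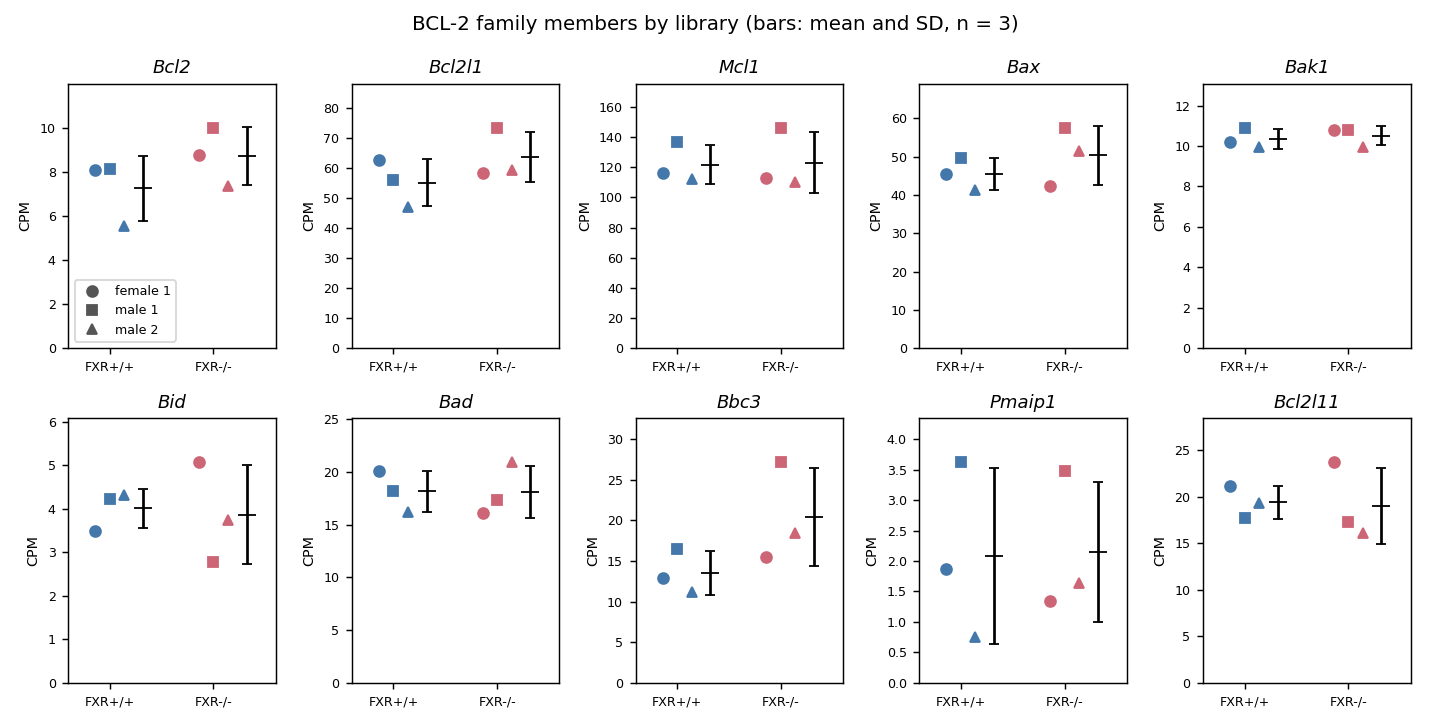
CPM (vertical axes, from 0) of each of the 10 members in each library, with FXR+/+ in blue and FXR-/- in red, the symbol giving sex and number, and a bar for the mean and SD of 3 libraries. In every panel the genotypes overlap, and in *Bbc3* they do so only between FXR-/- female 1 (15.6 CPM) and FXR+/+ male 1 (16.5 CPM).

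*Bbc3* was the member with the largest difference. It encodes PUMA, a BH3-only protein that binds all of the anti-apoptotic members. The libraries held 303, 332 and 355 counts of it in FXR+/+ and 384, 516 and 440 in FXR-/-, which came to 12.9, 16.5 and 11.2 CPM in FXR+/+ and 15.6, 27.1 and 18.5 CPM in FXR-/- islets. The genotypes overlapped in 1 place only, where FXR-/- female 1 was below FXR+/+ male 1, and the male 1 library was the highest of each genotype. The means were 13.5 ± 2.68 and 20.4 ± 6.02 CPM (SD, n = 3), and the log2 fold change was 0.57 (SE 0.206, 95% interval 0.092 to 1.06), a fold of 1.49. By edgeR the unadjusted p was 0.0257 and the adjusted p 0.452, and *Bbc3* stood at rank 832 of the genes by p. A two-sided exact permutation test over the 20 relabellings gave p = 0.2, where the smallest p it allows is 0.1. Within the pairs of libraries with the same sex and number, FXR-/- was 1.20 times FXR+/+ in female 1, 1.65 times in male 1 and 1.65 times in male 2. With the replicate block the log2 fold change was 0.57 (SE 0.124), and its adjusted p by edgeR was 0.103. The size leaned on single libraries and on a term for acinar RNA. Without FXR-/- male 1 the log2 fold change was 0.36 and the unadjusted p 0.084 by edgeR, and without FXR+/+ male 2 it was 0.38 and the unadjusted p 0.071. With the mean log2 CPM of the 14 acinar genes as a further term the log2 fold change was 0.35 and the unadjusted p 0.032 by edgeR.

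Along *Bbc3* the exons had log2 fold changes of similar size. The gene lies on the plus strand of chromosome 7, and its first exon in the exon table is chr7:16309583-16309861 in GRCm38. Of its 4 exons in that table, 3 had enough counts to be tested, and their log2 fold changes were 0.50 (exon 1), 0.65 (exon 2) and 0.59 (exon 4). Exon 4, the last and by far the most counted, stood at 17.9, 17.4 and 13.6 CPM of the exon table in FXR+/+ and at 20.4, 31.9 and 21.3 CPM in FXR-/- libraries, so that the genotypes did not overlap in this exon. It was the 1 tested exon of a member without overlap, where 12.1% of all exons tested had none. Its adjusted p over all exons tested was 0.619 by edgeR. In the fit of sex and genotype, exon 4 was also the only one of the 22 tested exons of the members with an unadjusted p under 0.05 (0.0161, by edgeR), while 7.79% of all exons tested had one. With the replicate block in edgeR, exon 4 (0.0024) and exon 2 (0.030) of *Bbc3* and exon 1 of *Mcl1* (0.0097) had an unadjusted p under 0.05. The share of all exons below it under that fit was not counted. For genes, the replicate block raised this share from 10.3% to 16.1%, so these exons are not set apart from others. No exon of a member was called at an adjusted p under 0.05, and 0.0185% of all exons were.

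The promoter of *Bbc3* is shown because the gene is a known target of p53 and of stress pathways, and because it is the member with the largest difference. The window is the 250 bases before the start of its first exon, chr7:16309333-16309582, plus strand, from RefSeq for GRCm38.p6, with capitals for the motifs found.
Bbc3 promoter: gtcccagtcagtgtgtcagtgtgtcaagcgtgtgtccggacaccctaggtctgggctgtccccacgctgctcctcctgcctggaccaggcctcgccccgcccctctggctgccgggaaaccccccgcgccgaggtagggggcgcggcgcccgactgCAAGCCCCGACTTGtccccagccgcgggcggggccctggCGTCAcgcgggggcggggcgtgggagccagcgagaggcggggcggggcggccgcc
The first run in capitals matches the core of the p53 response element and begins 94 bases before the start, and 5.84% of all 32851 promoter windows of this length hold such a match. The second is the CRE half-site TGACG on the minus strand, a motif of CREB and ATF factors, found in 17.8% of the windows. On both strands the window held neither the nuclear receptor half-site AGGTCA, present in 14% of the windows, nor the inverted repeat of that half-site with 1 base between, which FXR is known to bind with its partner RXR and which is present in 0.00609%. RefSeq has a pair of further starts of *Bbc3*, of which one window held a FOXO core beginning 167 bases before the start and none of the other motifs, and the other held no motif searched. No window of *Pmaip1* was searched. Among the windows of the other members the nuclear receptor half-site was found once, 104 bases before a further start of *Bcl2l1*. These are matches of letters and say nothing of binding.

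**Figure D2:**
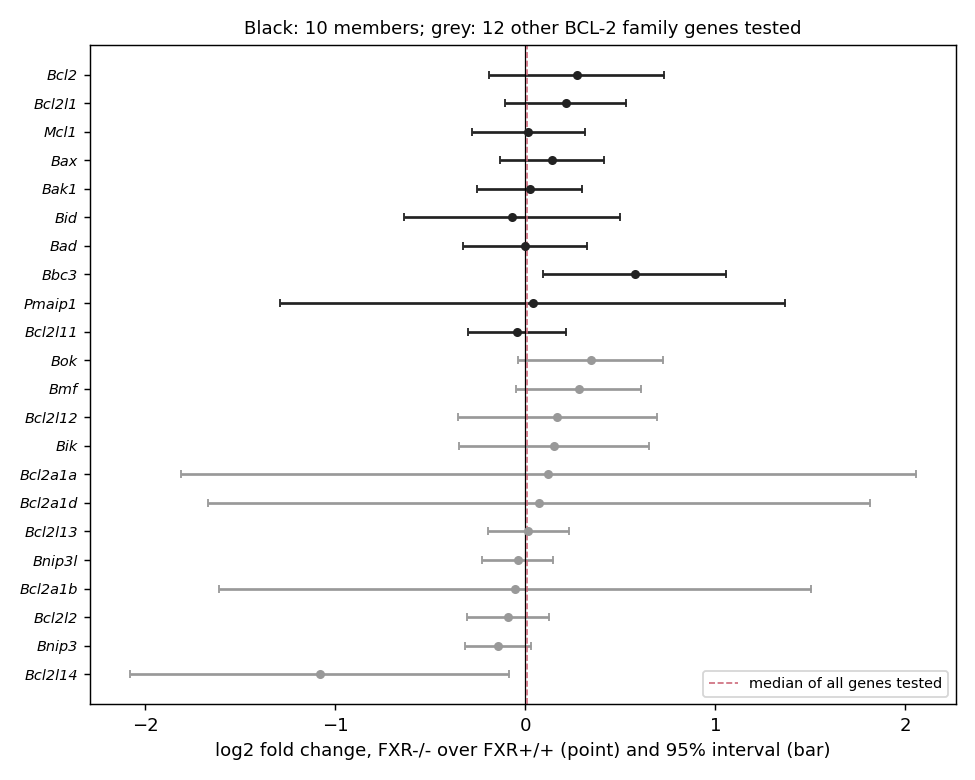
Log2 fold change of FXR-/- over FXR+/+ (points) with its 95% interval (bars) for the 10 members in black and the 12 other BCL-2 family genes tested in grey, with the median of all genes tested as a dashed line. Among the members the interval of *Bbc3* alone lies above 0 (0.092 to 1.06), and that of *Pmaip1* is the widest (−1.29 to 1.37).

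Of the other BH3-only members, *Pmaip1* varied most between libraries. *Pmaip1* encodes NOXA, which binds MCL-1 and speeds its breakdown. It stood at 1.88, 3.62 and 0.758 CPM in FXR+/+ and at 1.34, 3.47 and 1.64 CPM in FXR-/- libraries, from between 24 and 73 counts a library. The male 1 libraries were the highest of both genotypes, the highest library was 4.78 times the lowest, and the genotypes overlapped throughout. Its log2 fold change was 0.038 (SE 0.569, adjusted p = 0.982 by edgeR). The 95% interval ran from −1.29 to 1.37, so that a difference of that size in either direction was not detectable at this depth and spread.

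*Bid*, *Bad* and *Bcl2l11* lay close to no difference. BID links death receptors to the mitochondrion once caspase 8 has cut it. *Bid* was at 3.49, 4.21 and 4.32 CPM in FXR+/+ and at 5.06, 2.79 and 3.74 CPM in FXR-/- libraries, with the highest and the lowest library both FXR-/-. Its log2 fold change was −0.070 (95% interval −0.64 to 0.50, edgeR adjusted p = 0.925), and the pairs went in both directions, with 1.45 times in female 1 and 0.663 times in male 1. *Bad*, whose protein insulin and growth factors keep phosphorylated, was at 20.1, 18.2 and 16.2 CPM in FXR+/+ and at 16.1, 17.4 and 20.9 CPM in FXR-/- libraries. These are nearly the same levels in another order, and the log2 fold change was −0.0037 (95% interval −0.33 to 0.32, edgeR adjusted p = 0.992). *Bcl2l11* encodes BIM, which binds all the anti-apoptotic members and can activate the effectors directly. It was at 21.1, 17.6 and 19.3 CPM in FXR+/+ and at 23.7, 17.3 and 16.1 CPM in FXR-/- libraries, so that female 1 was the highest of each genotype. Its log2 fold change was −0.045 (95% interval −0.30 to 0.21, edgeR adjusted p = 0.888), and its 3 tested exons were at 0.23, −0.011 and −0.036.

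The promoter of *Bcl2l11* is shown because FOXO factors are known to induce the gene. The window is chr2:128125788-128126037 of GRCm38.p6, plus strand, from RefSeq, with the FOXO core GTAAACA in capitals.
Bcl2l11 promoter: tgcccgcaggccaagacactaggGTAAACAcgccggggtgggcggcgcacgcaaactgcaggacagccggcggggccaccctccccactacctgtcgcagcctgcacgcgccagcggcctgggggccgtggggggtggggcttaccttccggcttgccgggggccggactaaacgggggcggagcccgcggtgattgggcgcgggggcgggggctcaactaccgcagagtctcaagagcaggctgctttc
The match begins 227 bases before the start, and 3.17% of all windows hold one on either strand. A second start of the gene in the exon table, further along the chromosome, had none of the motifs searched in its window.

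Among the anti-apoptotic members all 3 log2 fold changes were above 0 (2 of 3 with library size alone, under which *Mcl1* was at −0.080), and no member of the group passed the test. *Bcl2*, the founding member of the family, was at 8.06, 8.13 and 5.56 CPM in FXR+/+ and at 8.75, 9.99 and 7.36 CPM in FXR-/- libraries. Male 2 was the lowest of each genotype, and FXR-/- was above FXR+/+ in all 3 pairs, by 1.09, 1.23 and 1.32 times, though the genotypes overlapped. *Bcl2* and *Bbc3* were the 2 members higher in all 3 pairs, 0 members were lower in all 3, and 20.4% of all genes tested were higher and 18.9% lower in all 3. The log2 fold change of *Bcl2* was 0.27 (SE 0.197, 95% interval −0.19 to 0.73, edgeR adjusted p = 0.602).

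*Bcl2l1*, which encodes BCL-XL, the guardian that beta cells are known to rely on when stressed, was at 62.5, 55.8 and 47.1 CPM in FXR+/+ and at 58.3, 73.4 and 59.3 CPM in FXR-/- libraries. FXR-/- male 1 was the highest and FXR+/+ male 2 the lowest, and in female 1 the order of the genotypes was the reverse of that in the males (0.932 times, against 1.31 and 1.26 times). This gave a log2 fold change of 0.21 (SE 0.136, 95% interval −0.11 to 0.53, edgeR adjusted p = 0.566). Its 2 tested exons, which held most of its exon counts, were both at 0.20.

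*Mcl1* encodes a guardian whose mRNA and protein are both short-lived. It was the most counted member, at 116, 136 and 112 CPM in FXR+/+ and at 113, 146 and 110 CPM in FXR-/- libraries. The pattern over female 1, male 1 and male 2 was nearly the same in both genotypes, with male 1 highest in each. The difference between genotypes was small, at a log2 fold change of 0.015 (SE 0.127, 95% interval −0.28 to 0.31, edgeR adjusted p = 0.969).

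Within *Mcl1* the spread between libraries was wide in the first 2 exons and narrow in the last. Exon 1 (chr3:95658721-95659487) was at 51.3, 92.2 and 42.0 CPM of the exon table in FXR+/+ and at 57.1, 119 and 60.5 CPM in FXR-/- libraries, while exon 3, the last, was between 209 and 241 CPM in all 6. Exon 2, with few counts, was at 5.02, 11.7 and 6.20 CPM in FXR+/+ and at 7.49, 11.2 and 6.94 CPM in FXR-/- libraries, again with male 1 highest in each. Exon 1 took 17.4%, 27.2% and 15.3% of the exon counts of *Mcl1* in FXR+/+ and 20.1%, 31.9% and 21.9% in FXR-/- libraries. The share was higher in FXR-/- in each pair, and in 2 of them the Wilson 95% intervals, which cover counting error only, were apart: 25.4% to 29.0% against 30.1% to 33.9% in male 1, and 14.1% to 16.7% against 20.2% to 23.6% in male 2. Within FXR+/+ alone the share ran from 15.3% to 27.2%, and the genotypes overlapped. Such a share was given for no other member, and how many exons of all genes were higher in every pair was not counted. The log2 fold change of exon 1 was 0.33 (SE 0.288, edgeR adjusted p = 0.749), and with the replicate block its unadjusted p was 0.0097 and its adjusted p 0.241, so the exon was not called. Exon 3 was at −0.062 (edgeR adjusted p = 0.898). The difference between the exons was not tested.

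The male 1 libraries stood apart in the same way in genes that respond fast to the handling of tissue. The summed CPM of 8 immediate early and heat shock genes, among them *Fos* and *Egr1*, was 2269, 4149 and 277 in FXR+/+ and 946, 4979 and 2424 in FXR-/- libraries. Male 1 was the highest of each genotype in this sum, as it was in the exon 1 share of *Mcl1*, in *Pmaip1* and in *Bbc3*, and FXR+/+ male 2 was the lowest of the 6 libraries in all of them. The female 1 pair did not go alike. There FXR-/- was below FXR+/+ in this sum (946 against 2269 CPM) and in *Pmaip1* (1.34 against 1.88 CPM). It was above FXR+/+ in the exon 1 share (20.1% against 17.4%) and in *Bbc3* (15.6 against 12.9 CPM). Of the 10 members, 5 had their highest library in FXR-/- male 1 and 7 in one of the male 1 libraries. The share of all genes with their highest library there was not counted, so these counts do not set the members apart from other genes. The acinar sum, too, was highest in male 1 of each genotype and lowest in FXR+/+ male 2, and the part of handling or of acinar RNA in the members' values was not tested.

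**Figure D3:**
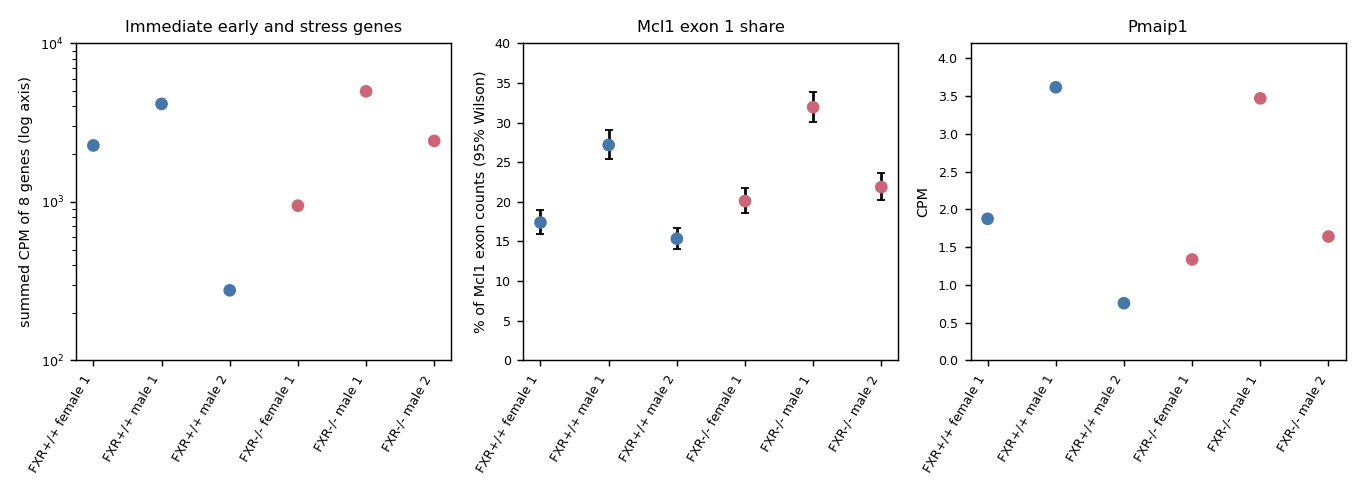
For each of the 6 libraries (FXR+/+ in blue, FXR-/- in red), the summed CPM of 8 immediate early and stress genes on a log axis (left), the percent of *Mcl1* exon counts in exon 1 with its Wilson 95% interval (middle), and the CPM of *Pmaip1* (right). In all 3 panels male 1 is the highest library of each genotype and FXR+/+ male 2 the lowest of all, at 277 CPM, 15.3% and 0.758 CPM.

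The effectors differed little. *Bax*, whose protein moves from the cytosol to the mitochondrion when a cell is set to die, was at 45.5, 49.6 and 41.3 CPM in FXR+/+ and at 42.2, 57.5 and 51.4 CPM in FXR-/- libraries. The 2 males of FXR-/- were the highest of the 6, and FXR-/- female 1 was the second lowest. The log2 fold change was 0.14 (SE 0.117, 95% interval −0.13 to 0.41, edgeR adjusted p = 0.648). The upper end of the interval corresponds to a fold of 1.33. The exon table gave *Bax* little weight, since it held only between 6.31% and 8.57% of the gene's counts, where it held between 92.6% and 96.3% of those of *Bcl2*.

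The promoter of *Bax* is shown as that of another p53 target. The window is chr7:45466899-45467148 of GRCm38.p6, from RefSeq, read on the minus strand 5′ to 3′, with a p53 half-site in capitals.
Bax promoter: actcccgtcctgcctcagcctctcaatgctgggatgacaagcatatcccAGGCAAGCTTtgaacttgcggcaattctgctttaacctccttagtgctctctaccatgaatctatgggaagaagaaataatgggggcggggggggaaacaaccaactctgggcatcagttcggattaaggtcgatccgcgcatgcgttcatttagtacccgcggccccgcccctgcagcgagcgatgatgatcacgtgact
The half-site begins 201 bases before the start, and 7.13% of all windows hold one. The core of the whole p53 element was searched only in the form with no bases between its half-sites. In that form, found in the *Bbc3* window, it was not found in these letters, and forms with bases between were not searched.

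*Bak1*, which encodes the effector that resides in the mitochondrial membrane, was the least variable member. It was at 10.2, 10.9 and 9.94 CPM in FXR+/+ and at 10.8, 10.8 and 9.97 CPM in FXR-/- libraries. Male 2 was the lowest of each genotype, and the log2 fold change was 0.023 (SE 0.118, 95% interval −0.25 to 0.30, edgeR adjusted p = 0.950). *Bak1* shares 614 of its exon bases with *Ggnbp1* on the other strand, *Bid* shares 628 with *Bcl2l13*, *Bad* 524 with *Gpr137* and *Bcl2* 558 with a long RNA, all on the other strand. Their counts are less certain, because whether strand was used in counting is not given. *Bax* shares 192 with a predicted gene on its own strand, which counting by strand would not separate, so its counts are less certain too. *Bbc3*, *Mcl1*, *Bcl2l1*, *Bcl2l11* and *Pmaip1* share no exon base with another gene in GENCODE vM21.

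**Figure D4:**
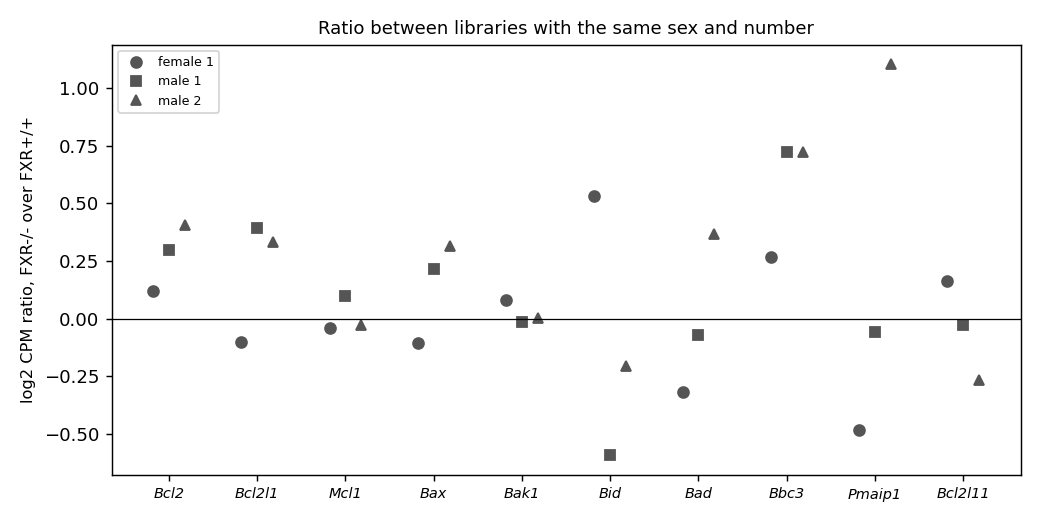
Log2 ratio of CPM, FXR-/- over FXR+/+, between libraries with the same sex and number (circle female 1, square male 1, triangle male 2) for each member. All 3 points of *Bbc3* and of *Bcl2* lie above 0, and the points of the other 8 members lie on both sides of it.

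The sexes could be compared only in a limited way, with 1 female library a genotype. The interaction of genotype and sex was called for 0 members at an adjusted p under 0.05 by edgeR's quasi-likelihood test, and the adjusted p of each member was 1.00, where 0% of all genes were called. At an unadjusted p under 0.05 it counted 0 members and 1.48% of all genes. The lowest p among the members was that of *Bid* (0.0782), where the difference in log2 fold change, males minus female, was −0.92 (SE 0.435). In female 1 FXR-/- was below FXR+/+ in *Bcl2l1*, *Mcl1*, *Bax*, *Bad* and *Pmaip1*, and the differences, males minus female, were 0.47, 0.083, 0.37, 0.47 and 0.75, with unadjusted p of 0.112, 0.787, 0.155, 0.124 and 0.583 by edgeR.

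The levels of the members were set side by side per kilobase of exon of coding transcripts, which allows comparison between genes, though the order depends on the length taken for a gene. In FXR+/+ islets *Bax* had the highest level, 52.4 ± 4.82 CPM per kb (SD, n = 3), followed by *Mcl1* at 35.6 ± 3.81 and *Bcl2l1* at 14.2 ± 1.99 CPM per kb. These 3 were apart from each other in every library of both genotypes. *Bad* at 7.59 ± 0.811 and *Bbc3* at 7.46 ± 1.48 CPM per kb did not differ beyond their spread. *Bak1* (4.33 ± 0.209), *Bcl2l11* (2.81 ± 0.254) and *Bid* (1.83 ± 0.206 CPM per kb) came next and were apart from each other by more than their SDs. *Bcl2* at 0.791 ± 0.160 and *Pmaip1* at 0.763 ± 0.528 CPM per kb were the lowest and did not differ beyond their spread. In FXR-/- islets the order was the same but for *Bbc3*, which at 11.2 ± 3.32 CPM per kb stood above *Bad* at 7.57 ± 1.05. With the lengths of the exon table in place of GENCODE, an alternative chosen after seeing the data, *Bbc3* was below *Bad* in both genotypes, at 10.3 and 12.4 CPM per kb in FXR-/-, and the order was otherwise as in FXR+/+. With the exons of all GENCODE transcripts, also chosen after seeing the data, *Bax* was 1576 bases long in place of 867 and came below *Mcl1*, at 28.8 ± 2.65 against 35.6 ± 3.81 CPM per kb in FXR+/+ (SD, n = 3) and at 32.0 against 36.0 CPM per kb in FXR-/-, so which of these 2 was higher is not settled. Of the 3 guardians *Mcl1* had the highest level and *Bcl2* the lowest by each of these lengths.

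Ratios within a library do not depend on scaling. The log2 ratio of *Bax* to *Bcl2* was 2.67 ± 0.204 in FXR+/+ and 2.53 ± 0.266 in FXR-/- (SD, n = 3), a difference of −0.13 that is smaller than either SD. In the pairs of the same number the difference was −0.23 (female 1), −0.084 (male 1) and −0.090 (male 2), below 0 in all 3, and it ran from −0.27 without FXR-/- male 2 to −0.0024 without FXR-/- female 1. The log2 ratio of the summed effectors to the summed anti-apoptotic members was −1.72 ± 0.0294 in FXR+/+ and −1.68 ± 0.133 in FXR-/-, a difference of 0.041, which was −0.036 without FXR-/- male 2. The ratio of *Bbc3* to *Mcl1* was 0.111, 0.121 and 0.0998 in FXR+/+ and 0.138, 0.186 and 0.168 in FXR-/- libraries, so that the genotypes did not overlap. This ratio was chosen after its values were seen: of the 45 pairs of members, 2 had ratios that did not overlap between genotypes, and both were with *Bbc3*, the other being *Bbc3* to *Bax*. The share of such ratios over all pairs of genes was not counted. Of single genes, 15.4% did not overlap in CPM, so 2 of 45 is no excess over that share. Ratios over members were given no test.

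The other genes of the pathway were read from the same fit. Of the other BCL-2 family genes, 12 of 15 were tested (*Bcl2l10*, *Hrk* and *Bcl2l15* were too low), and 0 were called at an adjusted p under 0.05 by edgeR. Their median log2 fold change was 0.044, with 0 genes higher and 1 lower at an unadjusted p under 0.05, where 6.18% of all genes were higher and 4.15% lower. The 1 lower gene was *Bcl2l14*, at 1.58, 1.39 and 0.663 CPM in FXR+/+ and 0.486, 0.579 and 0.589 CPM in FXR-/- libraries (log2 fold change −1.08, adjusted p = 0.466 by edgeR). *Bok*, a relative of the effectors, was at 0.34 (edgeR adjusted p = 0.491), with 4.90, 5.70 and 4.83 CPM in FXR+/+ and 6.04, 7.52 and 6.02 CPM in FXR-/- libraries. Of the 12 genes tested, 4 did not overlap between genotypes (*Bok*, *Bcl2l14*, *Bmf* and *Bnip3*), where 15.4% of all genes had no overlap. *Bcl2l2*, which encodes the guardian BCL-W, was the most abundant of this list by CPM, with means of 103 and 96.4 CPM (−0.093 on the log2 scale, adjusted p = 0.696 by edgeR). Copies of *Bcl2a1* are near-identical, so their separate counts are uncertain.

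Downstream of the mitochondrial pore, 17 of 17 genes of cytochrome c release and the caspases were tested and 0 were called. Their median log2 fold change was −0.084, and 13 were below 0 and 4 above (14 and 3 with library size alone). At an unadjusted p under 0.05 by edgeR there were 0 higher and 2 lower, where 6.18% of all genes were higher and 4.15% lower. The 2 were *Xiap* (−0.25, edgeR adjusted p = 0.464) and *Birc2* (−0.24, edgeR adjusted p = 0.464), which encode inhibitors of apoptosis. *Birc2* was at 58.8, 51.3 and 62.2 CPM in FXR+/+ and at 49.8, 47.2 and 49.1 CPM in FXR-/- libraries, without overlap. In all, 2 of the 17 genes did not overlap, where 15.4% of all genes had no overlap. *Vdac1*, the channel of the outer membrane to which BCL-2 proteins bind, had the highest CPM of this list and was at −0.13 (edgeR adjusted p = 0.582).

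Genes of the p53 pathway, of stress and FOXO pathways, and of binding partners and turnover of BCL-2 proteins were read in 3 further lists. At an adjusted p under 0.05, 0 genes of any of these lists were called. Beside the counts below, 6.18% of all genes were higher and 4.15% lower at an unadjusted p under 0.05 by edgeR. Of 16 p53 pathway genes the median log2 fold change was 0.019, with 0 higher and 1 lower at an unadjusted p under 0.05. *Mdm4*, a p53 inhibitor and the most abundant of the list, was the 1 lower (−0.32, edgeR adjusted p = 0.457). *Cdkn1a*, the p53 target p21, was at 23.7, 20.4 and 14.0 CPM in FXR+/+ and at 20.01, 98.0 and 28.1 CPM in FXR-/- libraries, so that 1 library, FXR-/- male 1, carried most of its difference (1.20 on the log2 scale, edgeR adjusted p = 0.491, and 0.31 without that library). The list of 10 genes of stress and FOXO pathways holds targets of these pathways, such as *Chac1*, as well as inducers of BH3-only genes. All 10 had a log2 fold change above 0, with a median of 0.25 (8 of 10 with library size alone), and 1 was higher at an unadjusted p under 0.05. With the mean log2 CPM of the acinar genes as a further term, 5 of the 10 were above 0 and the median was −0.037. The 1 gene higher at an unadjusted p under 0.05 was *Chac1*, a target of the ATF4 and CHOP branch of the stress response. It was at 13.6, 25.8 and 13.4 CPM in FXR+/+ and 18.9, 40.2 and 24.5 CPM in FXR-/- libraries (0.64, edgeR adjusted p = 0.478). *Chac1* was higher in FXR-/- in all 3 pairs and, like *Bbc3*, highest in male 1 of each genotype. *E2f1*, a transcription factor of the cell cycle, was at 0.25 (edgeR adjusted p = 0.505), and *Txnip*, which high glucose induces in beta cells, at 0.45 (edgeR adjusted p = 0.741), with values from 240 to 1231 CPM over the libraries. Of 16 genes of binding partners and turnover the median was 0.038, with 1 higher and 0 lower at an unadjusted p under 0.05. *Akt2*, a kinase of the insulin signal that phosphorylates BAD, was the 1 higher, at 0.19 (edgeR adjusted p = 0.478), and did not overlap between genotypes. In all, 2 of these 16 genes did not overlap, where 15.4% of all genes had no overlap. *Fbxw7*, part of a ligase that marks MCL-1 for breakdown, was at −0.22 (edgeR adjusted p = 0.535), and *Dynll2*, to which the BH3-only protein BMF binds, at 0.082 (edgeR adjusted p = 0.807).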

How the data were processed

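Islet RNA-seq of both genotypes was read from the gene and exon tables. Per the labels, mRNA was enriched with oligo(dT) beads and primed with random hexamers. HISAT is named in the submitters' processing notes, without a version, and the counting tool and its use of strand are not given in the sources used here. The authors deposited whole-number counts per gene and per exon, without normalization. They also deposited their own comparison of the genotypes (means, fold changes, p-values), which was not used. Exon positions are those of GRCm38, and 86.7% of the exons match GENCODE vM21.

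In R 4.3.3 with edgeR 4.0.16, filterByExpr (minimum count 10, minimum total 15), TMM, glmQLFit and glmQLFTest were run over all genes with terms for sex and genotype, which left 3 residual degrees of freedom (prior 4.43). p-values were adjusted by Benjamini and Hochberg over all 14619 genes or 26998 exons tested. DESeq2 1.42.0 and other scalings, filters and terms, and each library left out in turn, were alternatives. The script was tested on simulated data.

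Same-numbered libraries deviated together from their genotype means (r across genes of 0.361, 0.367 and 0.323, all other pairings at 0.0200 or below). The pairing rests on the numbers in the labels, and the labels do not say what a number marks. No pair of libraries was as close as sampling noise. Lengths are the union of exons of GENCODE basic protein-coding transcripts. All members are named, with, of each other pathway list, the 2 genes of lowest p and that of highest CPM. The members and lists were chosen with earlier results of these data known. Promoter windows were searched on both strands.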

Additional observations from a re-analysis of the deposited data

How the results depend on the processing

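At an adjusted p under 0.05, 0 members, 0 of their exons and 0 genes of the other lists were called under every alternative run, and 0 of 190 values of members over 19 alternatives passed. Over all genes the count was 0, but 23 with the replicate block (20 higher, 3 lower), 170 with DESeq2, 6 with a term for acinar RNA and 4 with exon counts summed per gene, and 0 whichever library was left out. The replicate block (the paired fit) changed no other call, and the adjusted p of *Bbc3* under it, 0.103, was the lowest of its alternatives, of which the highest was 0.882 (by edgeR, without FXR-/- male 1).

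*Bax*, *Bbc3*, *Bcl2* and *Bcl2l1* kept the sign of their log2 fold change in every alternative run, with *Bbc3* between 0.35 and 0.73, but the sizes moved. With 1 library left out *Bcl2* ran from 0.10 (without FXR+/+ male 2; 0.11 without FXR-/- male 1) to 0.41 (without FXR+/+ male 1), *Bcl2l1* from 0.072 (without FXR-/- male 1; 0.097 without FXR+/+ male 2) to 0.37 and *Bax* from 0.030 (without FXR+/+ male 2; 0.053 without FXR-/- male 1) to 0.26 (both upper values without FXR+/+ female 1). The term for acinar RNA gave 0.079, 0.092 and 0.041. The sign of the other 6 turned, and the cause was not tested. Library size alone, which moved the median of all genes by −0.095, gave −0.080 for *Mcl1*, −0.071 for *Bak1*, −0.051 for *Pmaip1* and −0.018 for *Dynll2*. The term for acinar RNA gave −0.11 for *Mcl1*, −0.018 for *Bak1*, 0.038 for *Bid*, −0.50 for *Pmaip1* and −0.15 for *Txnip*. Exon counts summed per gene gave −0.11 for *Bak1*, 0.16 for *Bid*, 0.041 for *Bad*, −0.16 for *Pmaip1*, and −0.14 in place of 0.041 for the log2 difference of the effector to anti-apoptotic ratio. Males alone gave −0.0062 for *Bak1* and 0.15 for *Bad*, and DESeq2 gave −0.0044 for *Pmaip1*. With 1 library left out the values ran from −0.12 to 0.12 for *Mcl1*, from −0.0059 to 0.065 for *Bak1*, from −0.38 to 0.12 for *Bid*, from −0.13 to 0.15 for *Bad*, from −0.52 to 0.72 for *Pmaip1*, from −0.15 to 0.027 for *Bcl2l11*, from −0.20 to 0.88 for *Txnip* and from −0.022 to 0.16 for *Dynll2*. Leaving out a female library leaves the other to the sex term, so that the fit rests on the males. *Pmaip1* had the fewest counts, 24 to 73 a library, and its SE of 0.569 was 0.310 with the replicate block and 0.241 with the term for acinar RNA.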
